A study of Mus musculus with 8 samples.

Results

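The 10 genes described here carry Ca2+ between the endoplasmic reticulum (ER), the cytosol, the mitochondria, and the outside of the cell. They are *Itpr1*, *Itpr2*, and *Itpr3* (release), *Orai1*, *Stim1*, *Stim2*, and *Piezo1* (entry), *Atp2a2* and *Atp2b1* (clearance), and *Mcu* (mitochondrial uptake). They were chosen by name from the 48709 genes listed in each library, and 10 of 10 were expressed enough to be tested. RNA-Seq was performed on whole pancreata of 8-week-old male mice 24 hours after modeling, with 2 libraries in each of 4 groups. WT mice and cKO mice (*Pfkfb3* fl/fl; *Pdx1*-Cre) were given normal saline or palmitoleic acid (POA) and ethanol, the latter with buprenorphine as analgesic, for the FAEE-SAP model of alcohol-related severe acute pancreatitis. In cKO mice, Cre under the *Pdx1* promoter deletes exons 2 and 3 of *Pfkfb3* in the lineage that gives rise to acinar, ductal, and islet cells, so other cells of the pancreas keep the gene. The floxed line was made in C57BL/6J mice and WT mice were bought from a breeder, so genotype and the source of the mice cannot be told apart.

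Pancreatic acinar cells secrete digestive enzymes when inositol trisphosphate (IP3) opens IP3 receptors in the ER and Ca2+ enters the cytosol. STIM proteins sense the emptied store and open ORAI channels in the plasma membrane. SERCA pumps return Ca2+ to the ER, PMCA pumps expel it from the cell, and the uniporter MCU carries part of it into mitochondria. A lasting rise of cytosolic Ca2+ in acinar cells is an early event of acute pancreatitis, and fatty acid ethyl esters formed from ethanol and fatty acids are known to cause one. The question here is whether transcripts of this machinery differ after FAEE-SAP or between the genotypes.

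The regulatory sequence upstream of these genes is shown for *Itpr2*, *Itpr3*, and *Orai1*, because *Itpr2* had the lowest and *Orai1* the highest log2 fold change of the 10 in WT mice, and *Itpr3* is the receptor subtype with the highest level. They were chosen after their values were seen. Each sequence holds the 250 bases before a RefSeq start site (GRCm38.p6), at chr6:146502224-146502473 on the minus strand for *Itpr2*, chr17:27057054-27057303 on the plus strand for *Itpr3*, and chr5:123014824-123015073 on the plus strand for *Orai1*. Capitals mark the GC box GGGCGG, which reads CCGCCC on the other strand; every motif here was searched on both strands.
Itpr2: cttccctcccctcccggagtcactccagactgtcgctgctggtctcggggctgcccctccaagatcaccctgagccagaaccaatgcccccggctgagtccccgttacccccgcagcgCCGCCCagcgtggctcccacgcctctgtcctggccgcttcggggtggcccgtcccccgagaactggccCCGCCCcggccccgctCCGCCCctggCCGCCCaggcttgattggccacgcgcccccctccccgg
Itpr3: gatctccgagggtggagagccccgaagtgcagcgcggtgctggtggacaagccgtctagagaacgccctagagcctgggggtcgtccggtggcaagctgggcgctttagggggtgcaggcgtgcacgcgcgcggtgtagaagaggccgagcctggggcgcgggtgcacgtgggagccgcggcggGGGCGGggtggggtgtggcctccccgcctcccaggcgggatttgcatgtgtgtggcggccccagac
Orai1: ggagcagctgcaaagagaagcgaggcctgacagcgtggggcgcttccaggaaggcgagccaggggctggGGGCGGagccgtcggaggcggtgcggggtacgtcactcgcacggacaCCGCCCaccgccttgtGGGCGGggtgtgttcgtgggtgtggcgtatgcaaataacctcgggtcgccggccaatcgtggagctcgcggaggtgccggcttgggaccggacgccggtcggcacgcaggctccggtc

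Of the 10 genes, 8 had an entry in the RefSeq promoter table, and *Itpr1* and *Atp2a2* had none. The GC box was found in 7 of these 8 and in 32.7% of 32851 promoters of the same length. A member was counted if any of its promoters held the motif, whereas the share of all is per promoter. *Atp2b1* had 2 promoters, both with GC boxes. GC content was 60.8% to 80.8% in the 8 genes, against a median of 52.4% over all promoters. *Mcu* was the member without a GC box, and the sequence TATAAA was present only in *Piezo1* among these 8 genes and in 12.4% of all promoters. The NFAT core GGAAA was found in 1 of the 8, *Atp2b1*, at 1 of its 2 promoters, and in 55.6% of all promoters. These matches describe letters only, and *Itpr2* and *Orai1*, whose log2 fold changes in WT mice had opposite signs, both hold several GC boxes.

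Levels are given as scaled RPKM, that is, the deposited reads per kilobase of exon relative to the mapped reads of the library, divided by a factor per library, the median of ratios to the geometric mean. These factors ran from 0.621 to 2.02 and were largest in the WT FAEE-SAP libraries, where digestive enzymes held 64.3% and 66.9% of the summed RPKM, against 79.5% to 86.9% in the other 6 libraries. Library totals worked out from the low values were 22.8 to 37.6 M reads, and about 41.8 (*Orai1*) to 6389 (*Atp2a2*) reads fell on a member in a library. *Pfkfb3* was examined first: with saline its scaled RPKM was 1.70 and 1.69 for WT against 0.880 and 2.10 for cKO, and with FAEE-SAP 1.85 and 3.21 for WT against 1.74 and 2.82 for cKO. The genotypes overlapped under both treatments on the scaled values. As deposited, they overlapped with saline (0.546 and 1.39 RPKM in cKO, 1.24 and 1.46 in WT). With FAEE-SAP the deposited values were lower in cKO without overlap (1.82 and 2.75 against 3.75 and 6.22). A value over all exons does not test a deletion of exons 2 and 3, so genotype here is that of the library labels. Summed markers of acinar cells (9 of 9 listed, none at 0) were 59654 to 70287 scaled RPKM in WT saline, 19685 to 21139 in WT FAEE-SAP, then 78489 to 83132 in cKO saline, and finally 44760 to 47696 in cKO FAEE-SAP. Summed neutrophil markers (7 of 7 listed) were 1.32 to 2.24, 56.0 to 62.0, 1.39 to 3.77, and 12.7 to 19.8 in the same order, with *Fpr1* at 0 in both WT saline libraries and *Mmp8* at 0 in 1 of them. Of 10 further marker lists, each listed in full, 4 also separated FAEE-SAP from saline in WT mice: islet (181 to 239 against 285 to 339) and smooth muscle (8.03 to 11.3 against 16.3 to 16.5) sums were lower, and ductal (69.6 to 72.1 against 44.7 to 48.8, although 4 of 6 ductal genes tested had log2 fold changes below 0) and adipocyte (53.2 to 70.4 against 23.0 to 36.4, with *Lep* at 0 in both saline libraries) sums were higher. These sums are on the scaled values. Taken back to deposited RPKM, islet and smooth muscle sums in WT mice were higher with FAEE-SAP without overlap. For example, *Ins2* was 121 and 125 RPKM with saline and 156 and 214 with FAEE-SAP, and *Acta2* 4.23 and 5.28 against 8.52 and 6.48. Acinar sums stayed lower, and neutrophil, ductal, and adipocyte sums higher. In tissue RNA, fewer cells of a type and less RNA per cell cannot be told apart, and the part of cell composition in the values below was not tested.

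Across the 8 libraries the members spanned a wide range of levels. *Atp2a2*, which encodes the ER pump SERCA2, had the highest mean, 15.9 scaled RPKM (11.9 to 19.5), and lay above 95.2% of the 11133 genes tested. *Stim1* (3.09), *Atp2b1* (2.69), and *Itpr3* (2.30) followed, and then *Stim2* (1.65), *Itpr2* (1.34), *Orai1* (0.991), *Piezo1* (0.954), *Itpr1* (0.640), and *Mcu* (0.564). Of neighbors in this order, *Atp2a2* and *Stim1*, and *Itpr3* and *Stim2*, had ranges that did not overlap, and the other neighbors overlapped. RPKM is per length of exon, so these levels can be set side by side between genes within the limits of the authors' gene models.

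**Figure D1:**
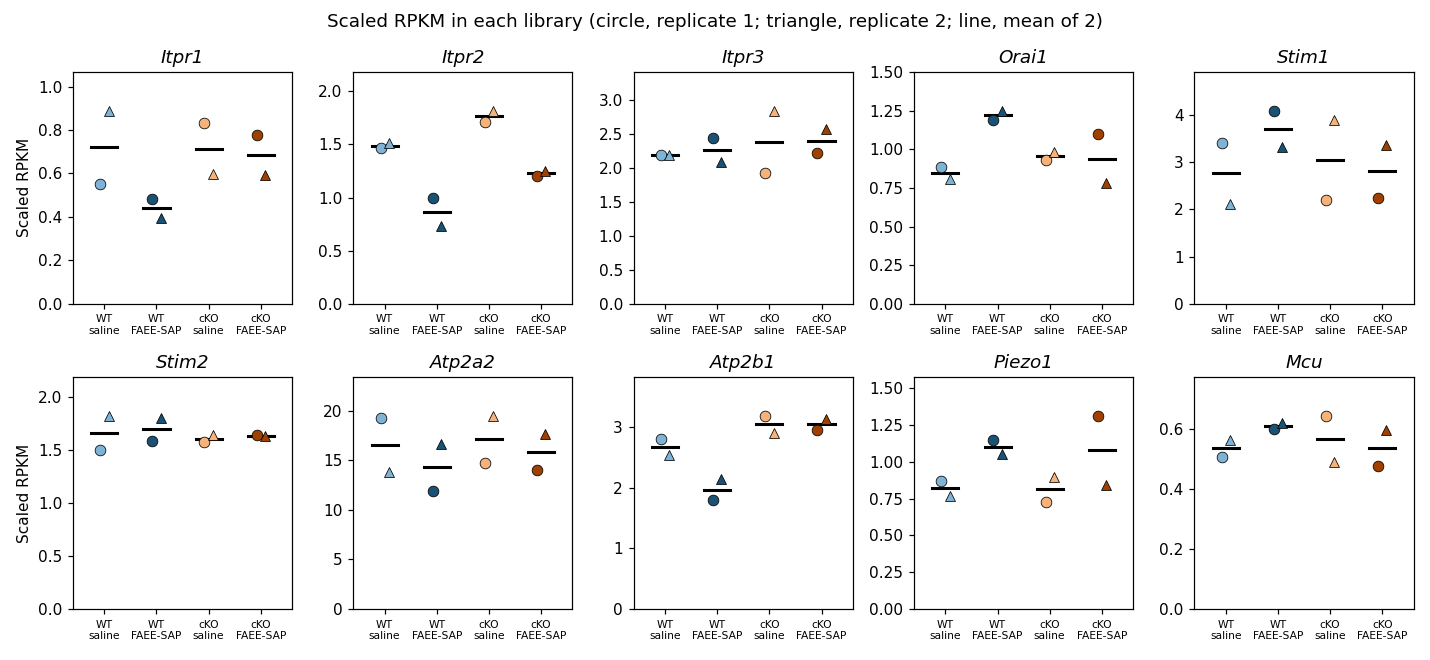
Scaled RPKM (y axis, from 0, 1 scale per panel) of the 10 calcium genes in each of 8 libraries by group (x axis). Circles are replicate 1, triangles replicate 2, and lines the mean of 2. *Itpr2* is lower in the 2 WT FAEE-SAP libraries (0.995 and 0.729) than in the other 6, and *Orai1* is highest there (1.19 and 1.25).

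FAEE-SAP against saline in WT mice asks how the tissue transcripts stand 24 hours into pancreatitis. None of the 10 genes passed the threshold, an adjusted p under 0.05 with a change of at least 2-fold, while 833 of 11133 genes tested did (7.48%). That count of all genes fell to 172 without WT saline replicate 1, 296 without WT saline replicate 2, and 187 without WT FAEE-SAP replicate 2, and the count of members stayed at 0. Between 2 libraries and 2 libraries, *Itpr1*, *Itpr2*, and *Atp2b1* were lower without overlap and *Orai1*, *Piezo1*, and *Mcu* higher without overlap. Such separation occurred in 29.4% of all genes tested for lower and 29.1% for higher, so 3 of 10 in each direction is near the background. *Mcu* reached the minimum for testing, a deposited RPKM of at least 0.5 in at least 2 libraries, only through the FAEE-SAP libraries. It was 0.502 to 1.22 RPKM there and 0.326 to 0.491 in the saline libraries, so its separation is no support for a rise. The median log2 fold change of the 10 was 0.04, and that of all genes tested 0.01. All p-values measure the spread between the 2 samples per group, which are described as biological replicates. This spread was pooled over the 4 groups and drawn toward the trend of all genes. A gene therefore has the same SE in every comparison of 2 groups, however far apart the samples of those groups lie.

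The IP3 receptors are the release channels of the ER. Scaled RPKM of *Itpr2*, a subtype abundant in acinar cells, was 1.46 and 1.51 in WT saline and 0.995 and 0.729 in WT FAEE-SAP. The WT FAEE-SAP values were the lowest of the 8 libraries. On the scale of log2(scaled RPKM + 0.1) the difference was -0.74 (SE 0.19, 95% interval -1.19 to -0.28), or 1.67-fold lower, with an unadjusted p of 0.00613 and an adjusted p of 0.0544 (limma, Benjamini-Hochberg), which missed the threshold. *Itpr1*, the subtype best known from neurons, was 0.552 and 0.890 in WT saline and 0.483 and 0.395 in WT FAEE-SAP, again the lowest 2 of the 8 libraries. Its log2 fold change was -0.58 (SE 0.29, limma, Benjamini-Hochberg adjusted p = 0.234), and it was -0.88 without WT saline replicate 1 and -0.28 without WT saline replicate 2. *Itpr3*, the other subtype abundant in acinar cells, was 2.19 and 2.19 in WT saline and 2.43 and 2.09 in WT FAEE-SAP, which overlapped. Its log2 fold change was 0.04 (SE 0.22), with an interval from -0.48 to 0.56 that includes neither a halving nor a doubling.

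Among the entry genes, *Orai1*, the pore of the store-operated channel, was 0.886 and 0.810 in WT saline and 1.19 and 1.25 in WT FAEE-SAP. These 2 values were the highest of the 8 libraries. Its log2 fold change of 0.48 (SE 0.21, 95% interval -0.01 to 0.97) did not pass the test (limma, Benjamini-Hochberg adjusted p = 0.178). *Stim1*, the ER sensor that opens ORAI1, was 3.42 and 2.13 in WT saline and 4.10 and 3.32 in WT FAEE-SAP, and the groups overlapped. The log2 fold change of 0.44 (SE 0.35) rested on single libraries, at 0.77 without WT saline replicate 1 and 0.10 without WT saline replicate 2. *Stim2*, the sensor of small losses from the store, was 1.50 and 1.83 against 1.59 and 1.81, with overlap and a log2 fold change of 0.03 (SE 0.18). *Piezo1* encodes a mechanically gated cation channel known to admit Ca2+ when the pancreas is under pressure. It was 0.872 and 0.770 in WT saline and 1.15 and 1.05 in WT FAEE-SAP, without overlap (log2 fold change 0.39, SE 0.24, limma, Benjamini-Hochberg adjusted p = 0.344).

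Of the clearance genes, *Atp2b1*, which encodes the plasma membrane pump PMCA1, was 2.81 and 2.54 in WT saline and 1.80 and 2.14 in WT FAEE-SAP. The 2 WT FAEE-SAP libraries were the lowest of the 8. Its log2 fold change was -0.43 (SE 0.17, 95% interval -0.83 to -0.02), with an unadjusted p of 0.0411 and an adjusted p of 0.154 (limma, Benjamini-Hochberg). *Itpr2* and *Atp2b1* were the 2 members with an unadjusted p under 0.05 here, as were 29.1% of all genes tested. *Atp2a2* was 19.3 and 13.8 in WT saline and 11.9 and 16.7 in WT FAEE-SAP, which overlapped, and its log2 fold change of -0.21 (SE 0.26) turned positive with other scalings given below. *Mcu*, the pore of the mitochondrial uniporter, was 0.509 and 0.566 against 0.603 and 0.621, without overlap and with a log2 fold change of 0.16 (SE 0.23).

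**Figure D2:**
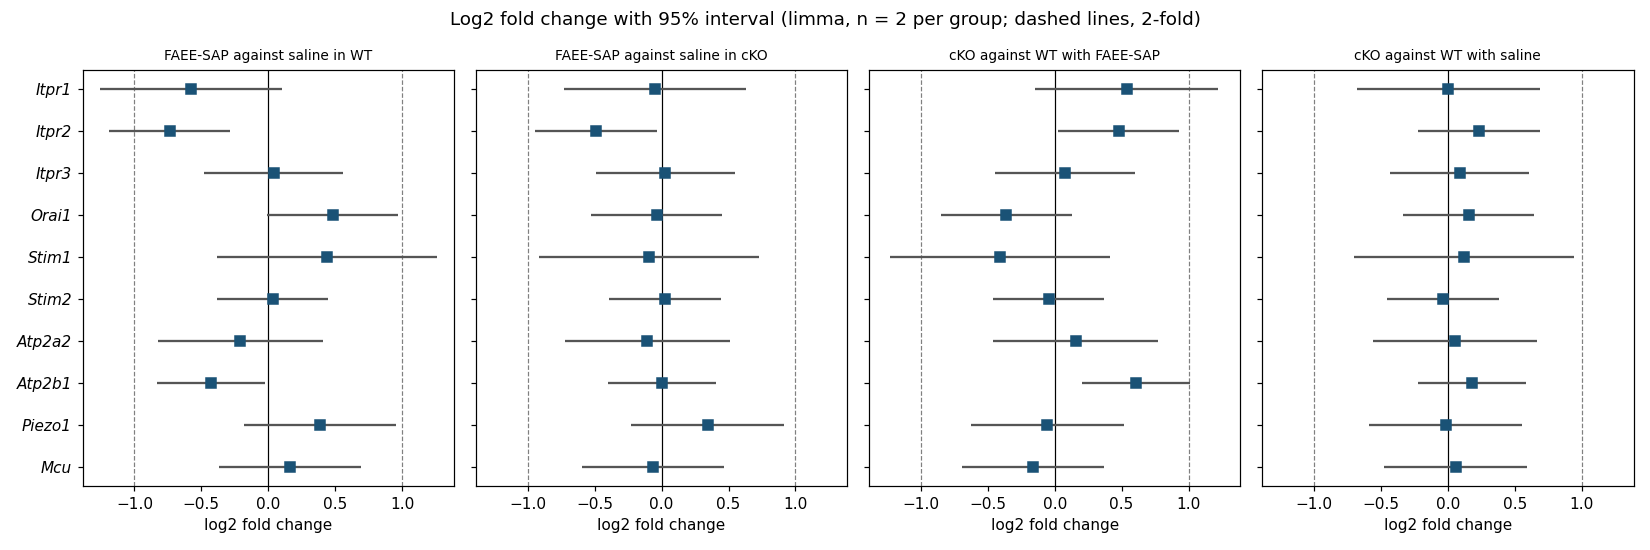
Log2 fold change (x axis, squares) with its 95% interval (lines) for the 10 genes (y axis) in 4 comparisons, from limma with 2 libraries per group, with dashed lines at 2-fold. *Itpr2* in WT mice has an interval from -1.19 to -0.28 and *Atp2b1* in cKO against WT mice with FAEE-SAP from 0.21 to 1.01, and neither passed after adjustment.

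These directions depend on how the libraries are set on a common scale. As deposited, an RPKM is relative to a library in which digestive enzymes held up to 86.9%. Without scaling, the WT response had a median of 1.23 (log2) over all genes and of 1.30 over the 10 members, and 7 members were called higher. Those 7 were *Itpr3*, *Orai1*, *Stim1*, *Stim2*, *Atp2a2*, *Piezo1*, and *Mcu*. *Stim1* as deposited was 2.49 and 1.84 RPKM in WT saline and 8.29 and 6.43 in WT FAEE-SAP. *Itpr2* as deposited was 1.07 and 1.31 against 2.01 and 1.41, so its log2 fold change was 0.48 and above 0, yet below the median of all genes. *Itpr1* (0.55), *Atp2b1* (0.84), and *Atp2a2* (1.10) were also above 0 as deposited and below that median. With libraries scaled instead to their summed RPKM without digestive enzymes, which moved the median of all genes to 0.32 in WT mice, the log2 fold change in WT mice was -0.44 for *Itpr2*, -0.31 for *Itpr1*, -0.11 for *Atp2b1*, 0.79 for *Orai1*, and 0.76 for *Stim1*, none of them called. Between the genotypes with FAEE-SAP that scaling gave 0.18 for *Atp2b1*, 0.076 for *Itpr2*, 0.17 for *Itpr1*, -0.77 for *Orai1*, and -0.84 for *Stim1*, with a median of -0.40 over all genes. A pseudocount of 1 in place of 0.1 gave -0.42 for *Itpr2*, -0.25 for *Itpr1*, and 0.27 for *Orai1* in WT mice.

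**Figure D3:**
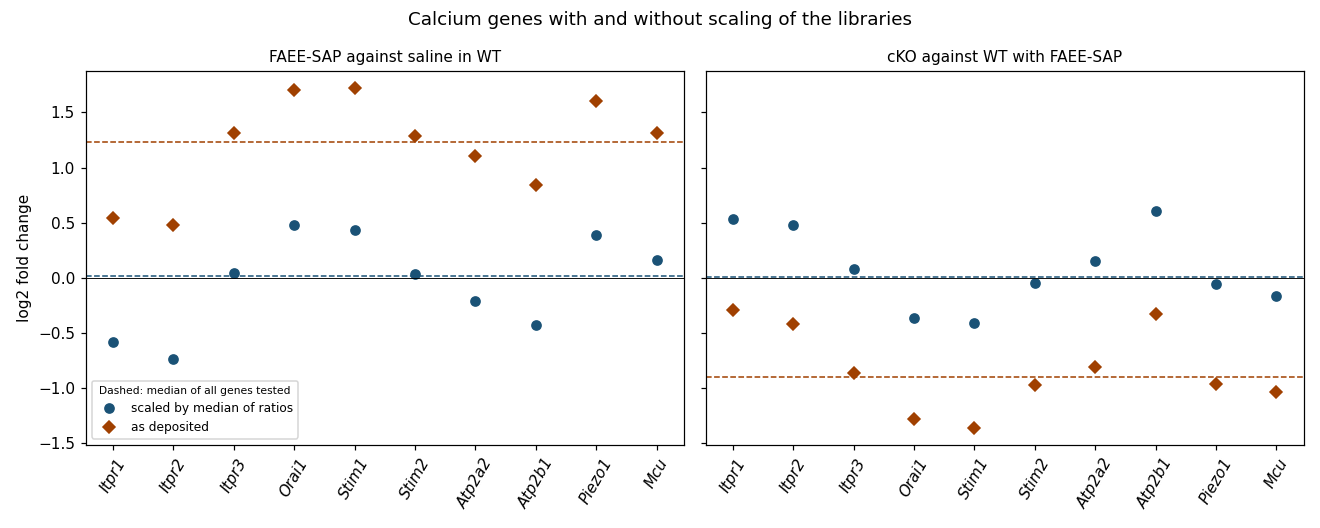
Log2 fold change (y axis) of the 10 genes (x axis) with scaled values (circles) and with values as deposited (diamonds), and the median of all genes tested on each scale (dashed lines). Without scaling the median of all genes moves to 1.23 in WT mice and to -0.90 in cKO against WT mice with FAEE-SAP, and the members move with it.

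A ratio of genes within 1 library does not depend on the scaling. The share of *Itpr2* in the summed RPKM of the 3 receptor genes was 34.8% and 32.9% in WT saline and 25.5% and 22.7% in WT FAEE-SAP. In the libraries labeled cKO it was 38.4% and 34.6% with saline and 28.7% and 28.4% with FAEE-SAP. In both genotypes the FAEE-SAP libraries were below the saline libraries without overlap. *Itpr3* held 52.1% and 47.7% with saline and 62.2% and 65.0% with FAEE-SAP in WT mice, and 43.0% and 54.0% with saline and 52.7% and 58.2% with FAEE-SAP in cKO mice, so it separated in WT mice and overlapped in cKO mice. The ratio of *Itpr3* to *Itpr2* RPKM was 1.47 ± 0.035 (SD, n = 2) in WT saline and 2.65 ± 0.30 (SD, n = 2) in WT FAEE-SAP. In cKO mice it was 1.34 ± 0.31 (SD, n = 2) with saline and 1.94 ± 0.15 (SD, n = 2) with FAEE-SAP. All 4 FAEE-SAP libraries (1.83 to 2.86) lay above all 4 saline libraries (1.12 to 1.56). These ratios were chosen after the values were seen, so they are a description and were not tested.

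**Figure D4:**
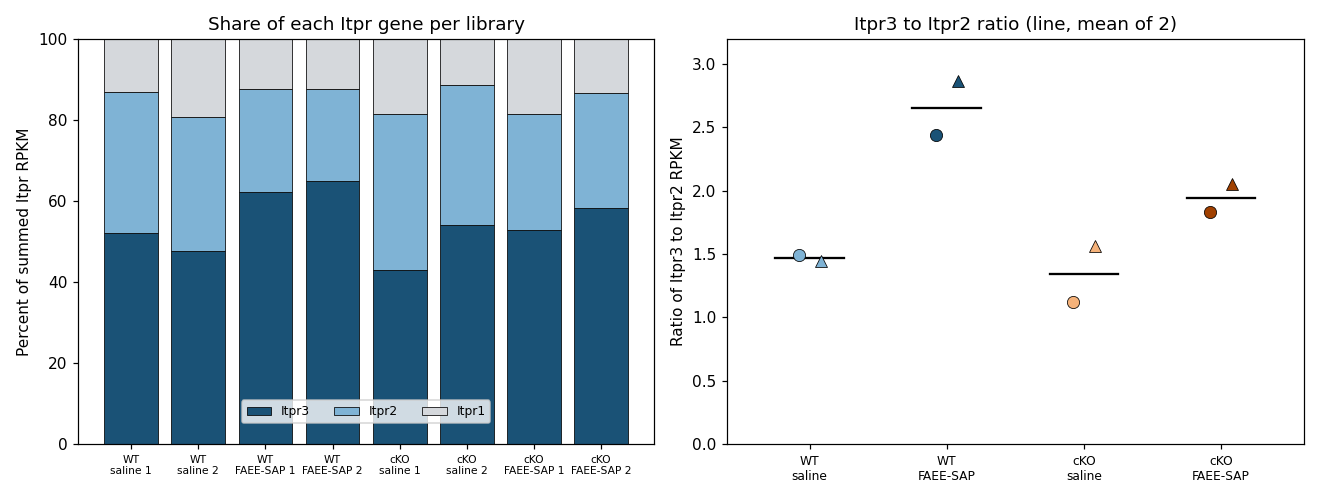
Left, percent of summed *Itpr* RPKM (y axis) held by each receptor gene in each library (bars). Right, ratio of *Itpr3* to *Itpr2* RPKM (y axis, from 0) by group, with circles for replicate 1, triangles for replicate 2, and lines for the mean of 2; the FAEE-SAP libraries lie at 1.83 to 2.86 and the saline libraries at 1.12 to 1.56.

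*Stim1* held 69.5% and 53.8% of the summed *Stim* RPKM with saline and 72.1% and 64.7% with FAEE-SAP in WT mice, and 58.3% and 70.4% with saline and 57.7% and 67.3% with FAEE-SAP in cKO mice, and the treatments overlapped in both genotypes. For the pump and the receptors, the ratio of *Atp2a2* to summed *Itpr* RPKM was 3.01 to 5.19 in the WT libraries and 3.30 to 4.01 in those labeled cKO, again with overlap of the treatments in each genotype.

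In cKO mice, FAEE-SAP against saline gave no call among the 10 genes, against 15 of all genes tested (0.135%). *Itpr2* was 1.71 and 1.82 in cKO saline and 1.21 and 1.25 in cKO FAEE-SAP, and it was the 1 member whose libraries did not overlap. Its log2 fold change was -0.49 (SE 0.19, 95% interval -0.94 to -0.04), with an unadjusted p of 0.0377 and an adjusted p of 0.418 (limma, Benjamini-Hochberg). In the same libraries, summed acinar markers were lower without overlap (44760 to 47696 against 78489 to 83132), and neutrophil (12.7 to 19.8 against 1.39 to 3.77), islet (428 to 450 against 302 to 372), macrophage (106 to 122 against 83.8 to 87.1), endothelial (17.7 to 23.5 against 13.9 to 14.0), and ductal (68.7 to 69.0 against 32.4 to 53.4) sums were higher without overlap. Genes with a log2 fold change above 0 were 2 of 9 acinar, 6 of 7 neutrophil, 7 of 7 islet, 6 of 7 macrophage, 7 of 7 endothelial, and 4 of 6 ductal. The acinar sum mainly follows its most abundant gene, *Cela1*, so not every acinar marker was lower. The other 6 marker lists overlapped, and the part of the marker changes in the value of *Itpr2* was not tested. An unadjusted p under 0.05 was reached by 1 of 10 members and by 10.9% of all genes tested. Over all genes, 21.9% were lower and 20.2% higher without overlap, against 1 and 0 of the 10. *Piezo1* was 0.730 and 0.897 with saline and 1.31 and 0.844 with FAEE-SAP (log2 fold change 0.35, SE 0.24), and 1 of the FAEE-SAP libraries lay within the saline range. *Itpr3* was 1.92 and 2.84 with saline and 2.21 and 2.56 with FAEE-SAP, with a log2 fold change of 0.03 (SE 0.22). *Atp2a2* was 14.7 and 19.5 with saline and 14.0 and 17.6 with FAEE-SAP, with a log2 fold change of -0.11 (SE 0.26). The median log2 fold change was -0.04 for the 10 genes and -0.02 for all genes tested. As deposited all 10 were above 0, and 6 of them, *Itpr2* among them, had the opposite sign to the scaled values.

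With saline, the libraries labeled cKO and WT had no called gene among the 10 and none among all genes tested (0%), and an unadjusted p under 0.05 was reached by 0 of 10 members and 2.63% of all genes (limma). On the scaled values *Itpr2*, *Orai1*, and *Atp2b1* were higher in cKO without overlap, and no member was lower without overlap. As deposited, the log2 fold changes of all 10 members were below 0, 8 of them with the opposite sign to the scaled values. On that scale *Atp2b1* (1.98 and 1.93 RPKM against 2.05 and 2.20) and *Piezo1* (0.453 and 0.596 against 0.635 and 0.667) were lower in cKO without overlap. *Orai1* (-0.11), *Itpr2* (-0.05), and the other members overlapped. Among all genes tested, 15.6% were higher and 13.6% lower without overlap on the scaled values. The log2 fold changes of the members ran from -0.04 (*Stim2*) to 0.23 (*Itpr2*), and the median was 0.07, against 0.02 for all genes.

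The genotypes with FAEE-SAP were compared because the study's question is how *Pfkfb3* in the pancreas bears on Ca2+ handling in pancreatitis. None of the 10 genes was called, against 295 of all genes tested (2.65%), a count that was 9 to 115 when either cKO FAEE-SAP library, either WT saline library, or WT FAEE-SAP replicate 2 was left out. *Atp2b1* was 2.96 and 3.14 in the libraries labeled cKO and 1.80 and 2.14 in WT, without overlap. Its log2 fold change of 0.61 (SE 0.17, 95% interval 0.21 to 1.01), 1.52-fold, had an unadjusted p of 0.00887 and an adjusted p of 0.103 (limma, Benjamini-Hochberg). *Itpr2* was 1.21 and 1.25 in cKO, against 0.995 and 0.729 in WT, also without overlap (log2 fold change 0.48, SE 0.19, adjusted p = 0.196, limma, Benjamini-Hochberg). The summed markers of islet (428 to 450 against 181 to 239), smooth muscle (15.4 to 27.8 against 8.03 to 11.3), endothelial (17.7 to 23.5 against 13.4 to 15.6), macrophage (106 to 122 against 68.3 to 94.8), and fibroblast and stellate cells (59.6 to 66.5 against 50.7 to 59.1) were higher in cKO than in WT here without overlap, as were acinar sums (44760 to 47696 against 19685 to 21139). Neutrophil (12.7 to 19.8 against 56.0 to 62.0) and ductal (68.7 to 69.0 against 69.6 to 72.1) sums were lower without overlap, although 4 of 6 ductal genes tested had log2 fold changes above 0 (median 0.27). The fibroblast and stellate sum was mostly *Dcn*, which itself overlapped (38.4 and 44.3 in cKO, 40.4 and 40.7 in WT). Taken back to deposited RPKM, the macrophage, endothelial, and fibroblast sums were lower in cKO without overlap. On that scale islet and smooth muscle sums overlapped, acinar sums stayed higher, and neutrophil and ductal sums stayed lower. The part of these cell types in the values of the members was not tested. *Atp2b1* and *Itpr2* were the 2 of 10 members with an unadjusted p under 0.05 (limma), as were 23% of all genes tested. As deposited, both had the opposite sign, -0.33 for *Atp2b1* and -0.42 for *Itpr2*, with a median of -0.90 over all genes, and *Orai1*, *Stim1*, and *Mcu* were called lower in cKO, which no other scaling gave.

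*Itpr1* was 0.779 and 0.591 in cKO FAEE-SAP and 0.483 and 0.395 in WT FAEE-SAP, the third member to be higher without overlap, with a log2 fold change of 0.54 (SE 0.29). *Itpr3*, the receptor gene with the highest level, was 2.21 and 2.56 in cKO, against 2.43 and 2.09 in WT, which overlapped (log2 fold change 0.08, SE 0.22, 95% interval -0.44 to 0.60). No receptor gene was lower without overlap in the cKO libraries on this scale. As deposited, *Itpr3* (2.32 and 2.50 RPKM in cKO, 4.92 and 4.04 in WT) and *Itpr2* (1.26 and 1.22 in cKO, 2.01 and 1.41 in WT) were lower without overlap, and *Itpr1* overlapped. On the scaled values *Orai1* (1.10 and 0.780 in cKO, 1.19 and 1.25 in WT) and *Mcu* (0.479 and 0.597 in cKO, 0.603 and 0.621 in WT) were lower without overlap. Their log2 fold changes were -0.36 (SE 0.21) and -0.16 (SE 0.23). That separation was seen in 26.8% of all genes for higher and 25.1% for lower, against 3 and 2 of the 10. *Stim1* was 2.25 and 3.37 in cKO, against 4.10 and 3.32 in WT, with overlap and a log2 fold change of -0.41 (SE 0.35).

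The libraries of the other 3 members overlapped between the genotypes with FAEE-SAP. *Stim2* was 1.65 and 1.63 in cKO, against 1.59 and 1.81 in WT, with a log2 fold change of -0.04 (SE 0.18). *Atp2a2* was 14.0 and 17.6 in cKO, against 11.9 and 16.7 in WT, with a log2 fold change of 0.16 (SE 0.26). *Piezo1* was 1.31 and 0.844 in cKO, against 1.15 and 1.05 in WT, with a log2 fold change of -0.06 (SE 0.24). The median log2 fold change was 0.02 for the 10 genes and 0.01 for all genes tested.

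The interaction of genotype and treatment tests whether the response to FAEE-SAP differed between cKO and WT mice. None of the 10 genes was called and none had an unadjusted p under 0.05 (limma), against 0.0719% and 12.6% of all genes tested. The differences between the responses were -0.53 for *Stim1* (SE 0.50), -0.52 for *Orai1* (SE 0.29), 0.43 for *Atp2b1* (SE 0.24), and 0.53 for *Itpr1* (SE 0.41) on the log2 scale, and the smallest adjusted p of the 10 was 0.505 (limma, Benjamini-Hochberg). For *Itpr2*, which was below saline without overlap in both genotypes, the 95% interval of the difference ran from -0.39 to 0.89 and included 0.

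The rest of the machinery was followed with 6 lists of genes written from general knowledge, of which 69 genes were tested and 3 (4.35%) were called in WT mice, below the 7.48% of all genes. Of other genes of store release, 13 of 17 listed genes were tested and 0 were called in any comparison. The ryanodine receptors *Ryr1*, *Ryr2*, and *Ryr3*, release channels best known from muscle and neurons, were among the 4 under the minimum, with 0.0301 RPKM (*Ryr2*) as the highest deposited value in a library. Of other entry genes, 9 of 15 were tested and *Orai2* fell in WT mice. *Orai2*, a close relative of *Orai1*, was 5.16 and 5.23 scaled RPKM in WT saline and 2.56 and 1.76 in WT FAEE-SAP, without overlap (log2 fold change -1.25, SE 0.26, limma, Benjamini-Hochberg adjusted p = 0.0280). In cKO mice it was 4.43 and 3.58 with saline and 6.03 and 4.11 with FAEE-SAP, which overlapped, and the interaction of *Orai2* did not pass (1.57, SE 0.36, limma, Benjamini-Hochberg adjusted p = 0.202). On the scaled values *Orai1* and *Orai2* lay on opposite sides of 0 in WT mice, whereas as deposited *Orai2* was at 0.023 and was not called.

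Of other pumps and exchangers, 6 of 18 listed genes were tested and 0 were called. The median log2 fold change of these 6 in WT mice was -0.29. Of other mitochondrial calcium genes, 13 of 14 were tested and 0 called, with a median of -0.07 in WT mice. Among ER calcium buffers and chaperones, 13 of 13 were tested and 1 rose in WT mice, with a median of 0.46 over the list. It was *Pdia3*, a disulfide isomerase of the ER, with 16.6 and 18.5 in WT saline and 31.0 and 49.2 in WT FAEE-SAP (log2 fold change 1.15, SE 0.25, limma, Benjamini-Hochberg adjusted p = 0.0330). Among calmodulin, calcineurin, and NFAT genes, which act downstream of cytosolic Ca2+, 15 of 16 were tested and 1 fell in WT mice. *Rcan2*, a regulator of calcineurin, was 3.10 and 2.57 in WT saline and 1.04 and 0.674 in WT FAEE-SAP (log2 fold change -1.64, SE 0.28, limma, Benjamini-Hochberg adjusted p = 0.0162). No gene of the 6 lists was called in the response of cKO mice, in either comparison of the genotypes, or in the interaction. The calls of *Orai2*, *Pdia3*, and *Rcan2* were each lost when WT saline replicate 1, WT saline replicate 2, or WT FAEE-SAP replicate 2 was left out, with adjusted p from 0.0634 to 0.161 (limma, Benjamini-Hochberg).

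The patterns over the 8 libraries are given as a description, since libraries of 1 group share treatment and genotype. For *Itpr2*, the genes with the highest Pearson correlation on the log2 scale over the 8 libraries were *Cdk10* (0.99), *Spop* (0.99), and *Gstk1* (0.99). For *Orai1* they were *Eif2s1* (0.94), *Pvr* (0.94), and *Tceb1* (0.94). Among the 10 genes themselves, *Orai1* and *Piezo1* (0.77), *Itpr1* and *Itpr2* (0.70), and *Itpr2* and *Atp2b1* (0.69) were most alike, and *Itpr1* and *Stim1* had the most negative correlation of those given here (-0.83).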

How the data were processed

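Total RNA of 8 mouse pancreata was sequenced (directional library kit, paired-end). Per the study's methods, reads were filtered with fastp, mapped to Ensembl GRCm38.p6, and quantified in CLC Genomics Workbench, and settings for expression values are not given in the sources used here. The authors deposited RPKM for 48709 genes per library, and no read counts were used. Libraries were grouped by their labels.

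RPKM was divided by median-of-ratios factors over all 8 libraries. Genes with a deposited RPKM of at least 0.5 in at least 2 libraries were kept (11133). The log2(scaled RPKM + 0.1) of all 8 libraries entered 1 model in limma 3.58.1 (R 4.3.3, variance trend), and p-values were adjusted by Benjamini-Hochberg over the 11133 genes. Calls needed an adjusted p under 0.05 together with a 2-fold or larger change. Depth was worked out from whole-read steps of low values, using GENCODE vM21 exon lengths for the 95.1% of genes matched by symbol, and 84.5% to 85.8% of low values came out whole within 0.1 reads. Reads on matched genes summed to 100.3% to 105.7% of these totals, so reads per gene are approximate, and whether they are reads or pairs was not settled. The procedure was tested on simulated data, with larger changes than those of the members and in genes of higher level than most members. That test does not say how often changes of the size seen here would be found. Figures were drawn with Python 3.11.15 and matplotlib 3.10.9.

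The members and lists were chosen with earlier results of these data known. Named are the 10 members, called genes of the other calcium lists (up to 3 per list, largest change in WT mice), the 3 genes most correlated with the members of largest rise and fall, and *Pfkfb3*. Ratios between members and the promoters shown were chosen after values were seen. Alternatives were values as deposited, other scalings, filters, pseudocounts, thresholds, no variance trend, the libraries of each comparison alone, replicate number as a block, and each library left out. Protein sequences were not used here.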

Additional observations from a re-analysis of the deposited data

How the results depend on the processing

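Members called stayed at 0 in all 5 comparisons under every alternative but values as deposited, with 7 called higher in WT mice after FAEE-SAP and 3 lower in cKO against WT mice with FAEE-SAP. As deposited, 4, 6, 8, 5, and 4 of the 10 members changed sign in WT mice, in cKO mice, between the genotypes with saline and with FAEE-SAP, and in the interaction. Of those given above, these did: in WT mice *Itpr1* 0.55, *Itpr2* 0.48, *Atp2a2* 1.10, and *Atp2b1* 0.84; in cKO mice *Itpr2* 0.12 and *Atp2a2* 0.54; in cKO against WT mice with saline *Itpr2* -0.054; with FAEE-SAP *Itpr1* -0.30, *Itpr2* -0.42, *Itpr3* -0.86, *Atp2a2* -0.81, and *Atp2b1* -0.33; and in the interaction *Itpr1* -0.039 and *Atp2b1* -0.21. Scaling to summed RPKM without digestive enzymes moved the median of all genes to 0.32 in WT mice and to -0.40 between the genotypes with FAEE-SAP. It turned *Atp2a2* to 0.12 in WT mice and, between the genotypes with FAEE-SAP, *Itpr3* to -0.35 and *Atp2a2* to -0.28. An RPKM minimum of 2 (7 members tested) gave -0.0046 for *Itpr3* and -0.013 for *Stim2* in WT mice and 0.0089 for *Stim2* between the genotypes with FAEE-SAP. Leaving out 1 library at a time gave ranges across 0 in WT mice for *Itpr3* (-0.051 to 0.16), *Stim2* (-0.10 to 0.16), and *Atp2a2* (-0.45 to 0.043), in cKO mice for *Itpr3* (-0.25 to 0.30) and *Atp2a2* (-0.31 to 0.091), with saline for *Stim2* (-0.17 to 0.10), and with FAEE-SAP for *Itpr3* (-0.031 to 0.19), *Stim2* (-0.14 to 0.043), *Atp2a2* (-0.090 to 0.39), and *Piezo1* (-0.34 to 0.23). *Orai2* in WT mice came to 0.023 as deposited. Some alternatives lost the calls of *Orai2*, *Pdia3*, and *Rcan2*, such as no filter for *Orai2* (adjusted p = 0.0530, limma) and *Pdia3* (adjusted p = 0.0600, limma) and values as deposited for *Rcan2* (-0.42). With the sign kept, single libraries moved *Piezo1* in cKO mice (0.055 to 0.63), *Mcu* in WT mice (0.098 to 0.22), and, between the genotypes with FAEE-SAP, *Itpr2* (0.27 to 0.67), *Orai1* (-0.58 to -0.14), *Stim1* (-0.70 to -0.12), and *Mcu* (-0.30 to -0.021) by over 1.5 times, as well as *Itpr1* (0.23 to 0.83), *Stim1* (-0.94 to -0.14), and *Orai1* (-0.73 to -0.30) in the interaction. The cause of these changes was not tested.

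Replicate numbers do not mark shared animals in the labels, and deviations of same-numbered libraries correlated at -0.17, -0.32, and -0.52 where WT saline took part and at 0.18, 0.30, and 0.40 otherwise. With the replicate number as a block, 0 members were called in each comparison, and all-gene counts went from 833 to 719 in WT mice, from 15 to 9 in cKO mice, from 295 to 191 between the genotypes with FAEE-SAP, and from 8 to 0 for the interaction. The call of *Pdia3* was lost with the block (adjusted p = 0.0556, limma), and those of *Orai2* and *Rcan2* were not. With the WT saline numbers exchanged, a choice made after seeing the data, they were 1195, 63, 730, and 68, and 0 members were called. Over all genes, for the 833 in WT mice counts were 7202 as deposited, 541 without a filter, 414 with a pseudocount of 1, and as low as 172 with 1 library left out. For the 295 between the genotypes with FAEE-SAP they were 4454 as deposited, 1011 scaled without enzymes, 64 without a filter, 186 with a pseudocount of 1, 140 with only the libraries of the comparison, and as low as 9 with 1 library left out. For the 15 in cKO mice they were 745 as deposited and 6 to 9 with a cKO library left out, and for the 8 of the interaction 0 to 791.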
